A study of Mus musculus with 4 samples.

Results

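The 10 genes described here encode proteins that license replication origins in G1 and control when they fire, namely *Mcm2*, *Mcm3*, *Mcm4*, *Mcm5*, *Mcm6*, *Mcm7*, *Mcm10*, *Cdc6*, *Cdt1* and *Rif1*. They were chosen by name, with no measured value in the rule but with earlier results of these data known, and the data give the replication timing of the DNA that holds them, not their expression. For each gene, the 50 kb bins that overlap its body in the GENCODE vM21 annotation (mm10) were taken, with the bins within 1 Mb on each side. All 10 genes were found, on 7 autosomes, out of 21679 protein-coding genes of the autosomes and X that have a value. Their bodies overlap 13 bins, and with the flanks the windows hold 413 of 51153 bins, with no missing bin and no bin shared between windows. Replication timing was measured by Repli-seq in F121-9, a diploid hybrid cas/129 mouse ESC line grown with 2i and LIF, with no other treatment named. Cells were pulse labeled with BrdU, and labeled DNA was sequenced from an early S fraction (2 libraries) and a late S fraction (2 libraries). The deposited value, RT, is the log2 of early over late reads of a bin, so a bin with RT above 0 has relatively more early reads. A single RT value is given for each bin, with no replicate named, and how the libraries entered it is not given in the sources used here. Spread between cultures and tests across samples therefore cannot be given, and the number of reads behind a bin is unknown. The only error available is the noise between neighboring bins inside flat segments, an SD of 0.16 log2 per bin, which does not cover differences between cultures. No expression values were used, so the cell type could not be set against marker genes.

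Origins are licensed when the origin recognition complex, with Cdc6 and Cdt1, loads the MCM helicase onto DNA as an inactive double ring. In S phase, kinases and further factors, Mcm10 among them, convert the ring into an active helicase that unwinds DNA ahead of the fork. Rif1 recruits protein phosphatase 1, which counteracts the kinase that activates the helicase, and it is known as a global regulator of replication timing in mammalian cells, mouse ESCs included. Many of these genes are known E2F targets, transcribed as cells enter the cycle.

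All 10 genes replicated early, with RT between 1.96 and 3.72 and a median of 2.67. Among all protein-coding genes 72.5% had RT above 0, and their median was 2.23, so an early position by itself is common for genes in this profile. RT was above 2 in 9 of the 10 genes, compared with 53.2% of all protein-coding genes. The genes were not the earliest of the genome, since 8 lay above the median of all genes, but only 3 of them (*Cdc6*, *Cdt1* and *Mcm10*) lay above 2.96, the median of the 15713 genes with RT above 0. All 6 genes of the MCM ring lay below that median. On a scale where the percentile of RT among all bins is spread over an S-phase of 10 h, the scheduled times ran from 0.09 h for *Cdc6* to 2.3 h for *Mcm3*. These times restate ranks of RT and carry no error, so small differences between them are not resolved.

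**Figure D1:**
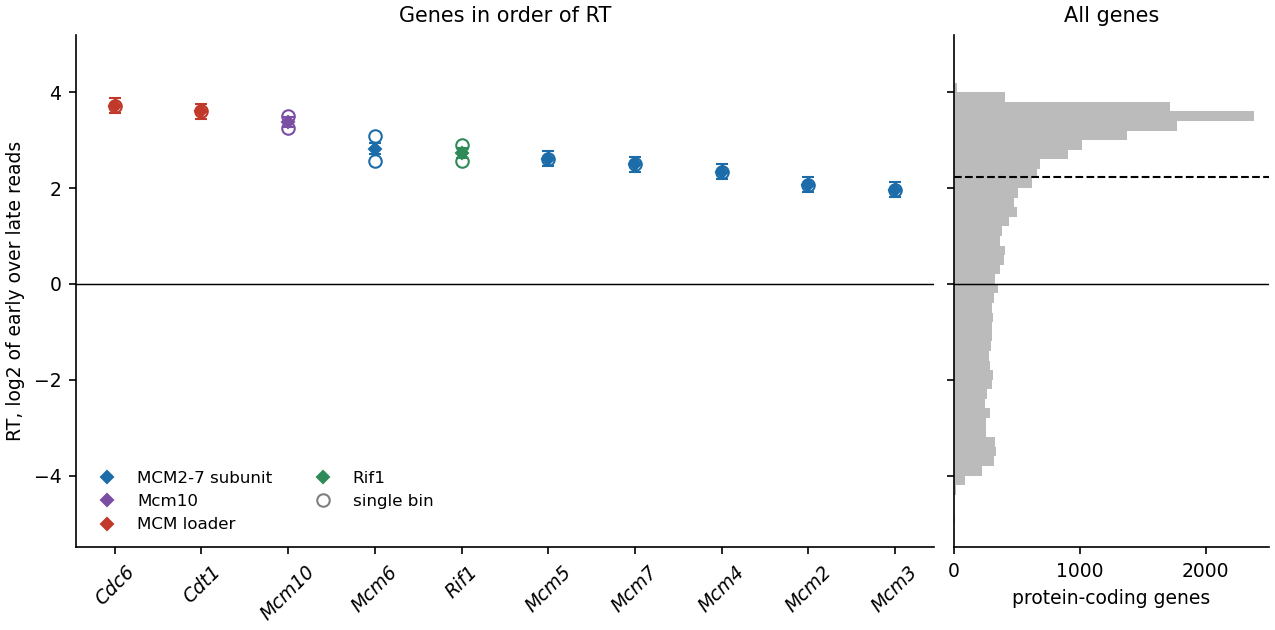
RT of the 10 genes (left; open circles are single bins, diamonds the mean of a gene with 1 noise SD of that mean) and a histogram of RT over all protein-coding genes (right; the dashed line is their median of 2.23). Every gene lies above RT 0, from 3.72 for *Cdc6* to 1.96 for *Mcm3*.

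The genes of the loading factors came first in the order. *Cdc6*, whose product is an ATPase that completes the loading platform, lies on chromosome 11 from 98907801 to 98923940 in a single bin with RT 3.72, at percentile 95.5 of protein-coding genes. *Cdt1*, whose product brings the MCM ring to the origin, lies on chromosome 8 from 122568015 to 122573554, also in 1 bin, with RT 3.60 at percentile 90.2. Next came *Mcm10*, on chromosome 2 from 4989714 to 5012791, with RT 3.51 and 3.25 in its 2 bins. *Cdc6* exceeded *Cdt1* by 0.12 and *Cdt1* exceeded *Mcm10* by 0.22, which is within 2 noise SDs of each difference (0.44 and 0.38).

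A step larger than the noise followed. *Mcm10*, with a mean of 3.38, exceeded the next gene, *Mcm6*, by 0.56, against a limit of 0.31 for 2 noise SDs, and this was the only one of the 9 steps in the order to pass its limit. The step depends on how the value of a gene is taken. With the bin of the gene start alone, *Mcm10* had RT 3.25, *Rif1* 2.89 and *Mcm6* 2.55. *Rif1* then came next, and its step from *Mcm10* stayed within the limit of 0.44 for single bins. *Mcm6* (chromosome 1, 128331590 to 128359664) had RT 3.09 and 2.55 in its 2 bins. The limit of 0.31 treats the 2 bins of a gene as repeats of 1 value, although those of *Mcm6* differ by more than the limit of 0.44 for single bins. *Rif1* (chromosome 2, 52072832 to 52122383), the longest of the genes at 49.6 kb, had RT 2.89 and 2.57 in its 2 bins. The mean of *Rif1*, 2.73, thus fell among the MCM genes and not among those of the loading factors.

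The remaining MCM genes each lie within 1 bin. *Mcm5* (chromosome 8, 75109569 to 75128439) had RT 2.62 and *Mcm7* (chromosome 5, 138164583 to 138172422) had RT 2.495. *Mcm4* (chromosome 16, 15623897 to 15637400) had RT 2.34. *Mcm2* (chromosome 6, 88883474 to 88898780) had RT 2.07, and *Mcm3* (chromosome 1, 20802968 to 20820312) came last with RT 1.96, at percentile 46.4 of protein-coding genes. Steps between neighbors in this part of the order were between 0.09 and 0.27, all within 2 noise SDs, so the order from *Mcm6* to *Mcm3* is set only between genes that lie further apart. The 6 subunits act in the cell as a single ring in equal numbers, and RT of their genes ran from 1.96 to 2.82 with a median of 2.42.

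Promoter windows from 250 bases before to 50 after the annotated start were taken from RefSeq (GRCm38.p6), where 8 of the 10 genes had an entry and *Mcm4* and *Rif1* did not. *Mcm7* had 2 windows, of which 1 held no E2F-type match, and each of the other genes had 1. The RefSeq start can differ from the GENCODE start of the gene bodies given above. The windows of *Cdc6* and *Mcm7* lie wholly inside those bodies, after the GENCODE start. The letters TTTNNCGC, the core of E2F sites, were searched on both strands, and 6 of the 8 genes (*Cdc6*, *Cdt1*, *Mcm3*, *Mcm5*, *Mcm6* and *Mcm7*) held at least 1 match, whereas 5.17% of all 32851 promoters and 7.30% of protein-coding genes, counted by any of their windows, did. Promoters of the 8 genes had a median of 21 CpG dinucleotides, compared with 14 in promoters of protein-coding genes and 7 in all promoters, and the motif itself contains a CpG. In promoters of protein-coding genes with at least 8 CpG, the lowest number among these genes, the median was 22 CpG, so the 8 genes were not rich in CpG among such promoters. Of the genes with such promoters 9.98% held the E2F-type motif, 39.7% a CCAAT box and 72.2% a GC box (GGGCGG). The CCAAT box was found in 6 of the 8 genes, all but *Cdc6* and *Cdt1*, and in 37.4% of all promoters. The GC box was found in 6 of the 8, all but *Cdc6* and *Mcm5*, and in 35.7% of all promoters, so its count is close to the share in promoters of like CpG number. A match of letters does not show that a factor binds there. The windows of the gene with the highest RT, of the 2 genes in the shortest early segments described below, and of *Mcm6*, which has the most matches, are shown 5′ to 3′ on the strand of the gene, with the E2F-type matches of either strand in capitals.
Cdc6: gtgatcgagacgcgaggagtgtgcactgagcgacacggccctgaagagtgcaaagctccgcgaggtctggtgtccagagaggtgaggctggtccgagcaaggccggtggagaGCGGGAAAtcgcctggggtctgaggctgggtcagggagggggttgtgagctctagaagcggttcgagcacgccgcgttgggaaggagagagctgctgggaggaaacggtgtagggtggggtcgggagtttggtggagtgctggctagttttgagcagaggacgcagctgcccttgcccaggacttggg
Mcm6: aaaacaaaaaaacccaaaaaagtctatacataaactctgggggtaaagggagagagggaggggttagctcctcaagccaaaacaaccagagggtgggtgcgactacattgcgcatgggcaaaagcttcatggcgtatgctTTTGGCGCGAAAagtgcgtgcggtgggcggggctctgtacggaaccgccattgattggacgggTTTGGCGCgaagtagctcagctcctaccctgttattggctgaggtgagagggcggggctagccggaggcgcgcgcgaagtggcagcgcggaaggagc
Mcm5: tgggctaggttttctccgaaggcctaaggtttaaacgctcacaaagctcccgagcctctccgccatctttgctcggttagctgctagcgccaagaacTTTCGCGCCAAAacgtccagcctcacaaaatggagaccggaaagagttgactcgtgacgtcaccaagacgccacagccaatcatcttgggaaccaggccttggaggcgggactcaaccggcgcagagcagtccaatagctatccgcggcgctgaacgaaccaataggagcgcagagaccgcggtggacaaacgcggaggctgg
Mcm3: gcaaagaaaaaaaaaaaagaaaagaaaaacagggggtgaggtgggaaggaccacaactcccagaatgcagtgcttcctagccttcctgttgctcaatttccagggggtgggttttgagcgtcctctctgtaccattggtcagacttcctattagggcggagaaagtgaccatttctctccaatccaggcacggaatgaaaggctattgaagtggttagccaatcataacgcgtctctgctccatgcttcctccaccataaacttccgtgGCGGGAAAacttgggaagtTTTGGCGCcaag
The Cdc6 window is chr11:98907901-98908200 (+), that of Mcm6 chr1:128359656-128359955 (-), that of Mcm5 chr8:75109259-75109558 (+) and that of Mcm3 chr1:20820263-20820562 (-). With positions counted from 0 at the RefSeq start and negative before it, the match in *Cdc6* begins at -138 and reads on the opposite strand. In *Mcm6* the matches begin at -110, -106 and -47, and the first pair overlap on opposite strands, as do both matches of *Mcm5*, at -153 and -149. *Mcm3* has its matches at 19 and 38, after the start. The gene with the highest RT and the one with the lowest both held the motif, while *Mcm10* and *Mcm2* had no match in these windows. The *Mcm10* window ends in TTTGGCG, all but the last letter of the motif, so a match across its edge could not be seen.

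Beyond the gene bodies, the 10 windows differed widely. Across them 289 of 413 bins (70.0%) had RT above 0, compared with 40.9% of all bins. Taken window by window, the early share had a median of 78.3% over the 10 genes. That median was 69.0% over all protein-coding genes and 85.4% over those with RT above 0, so the 10 genes lay between the 2. The range of RT within a window had a median of 6.14 log2, from 1.84 around *Cdt1* to 7.18 around *Mcm6*, compared with a median of 4.99 over the windows of all protein-coding genes. A crossing from early to late or back, where RT passes 0, lay within 9 of the 10 windows, which is the case for 71.5% of all protein-coding genes and for 68.5% of those with RT above 0. With the genome median of RT, -0.98, as the limit in place of 0, 7 windows held a crossing (all but those of *Cdt1*, *Rif1* and *Mcm7*), compared with 64.9% of all protein-coding genes. In 6 genes, all but *Mcm2*, *Mcm10*, *Cdc6* and *Cdt1*, the closest crossing was less than 300 kb from the gene body, compared with 32% of protein-coding genes with RT above 0. The limit of 300 kb falls in a gap of the values, between 271 kb for *Rif1* and 501 kb for *Cdc6*. It was not varied, so the count is a description. *Rif1* and *Mcm7* are among the 6, although their windows hold no crossing of the genome median. None of the 10 genes lay with all its bins inside a CTR, a stretch of at least 10 bins whose slope over 5 bins stays at or under 2.5 log2 per Mb. This rule places only 14.3% of all bins in a CTR. Of all protein-coding genes 16% lay inside one, so finding none among 10 genes is near that share.

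**Figure D2:**
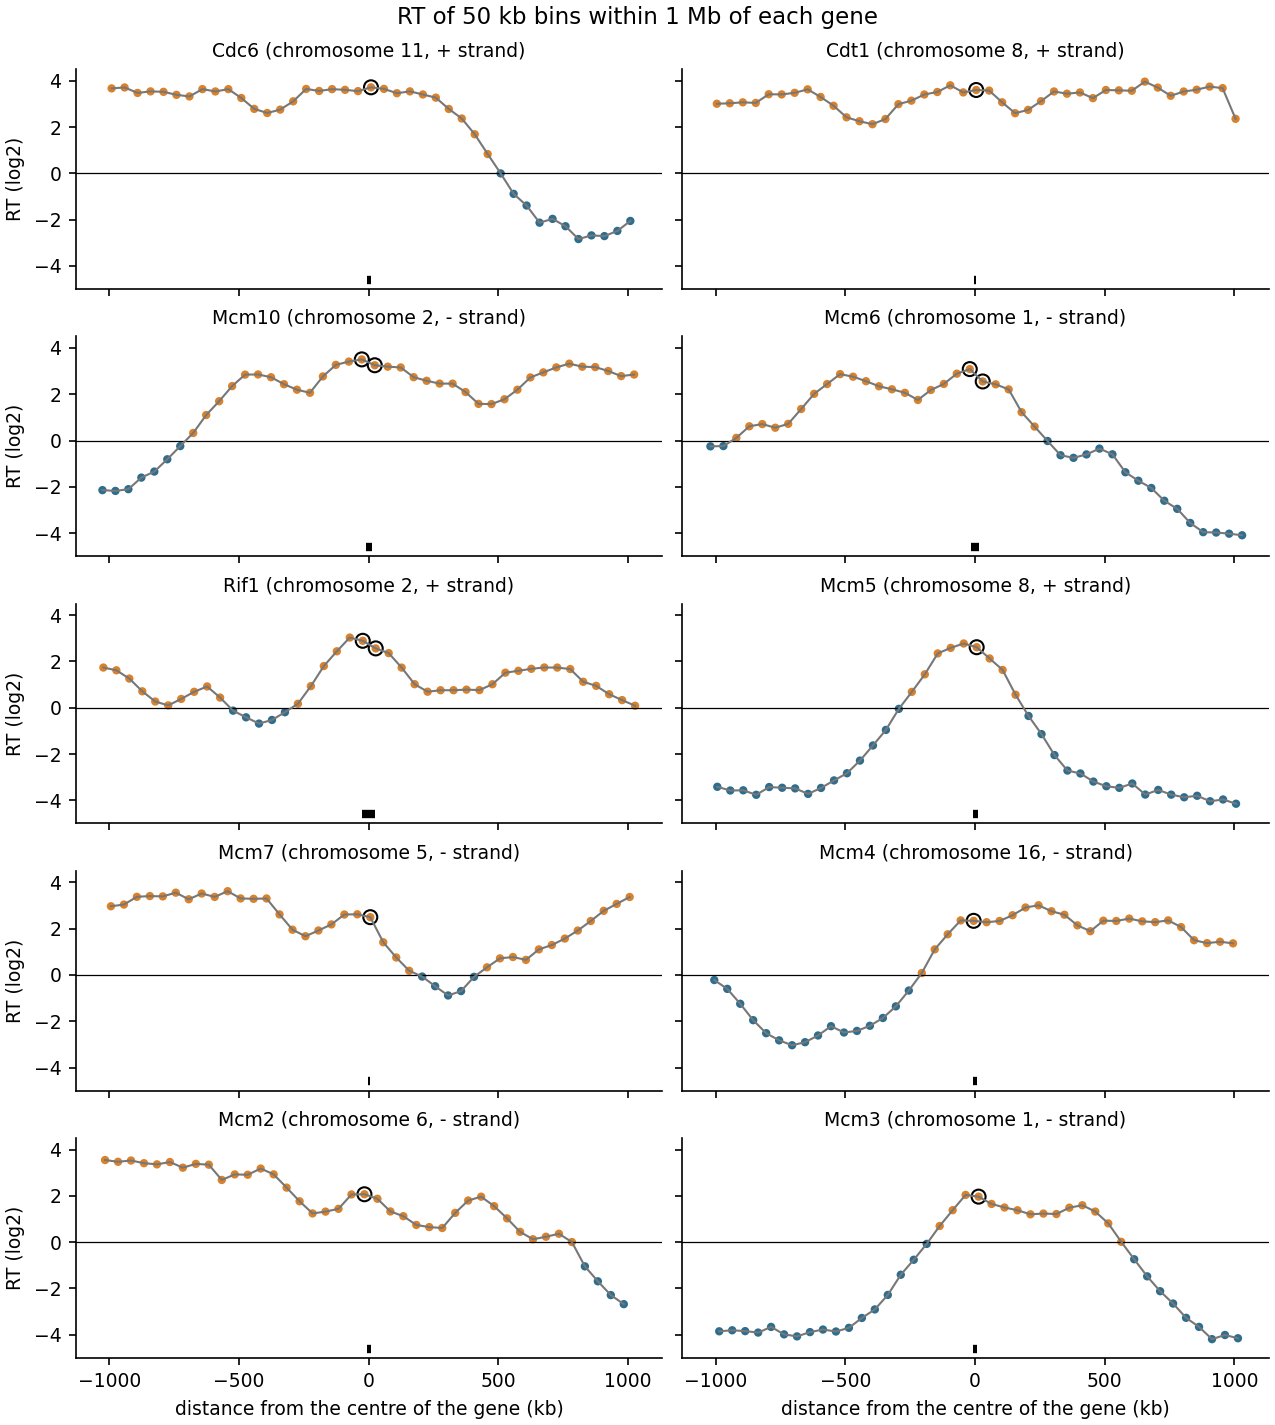
RT of each 50 kb bin (vertical axis, log2 of early over late reads) against its distance from the centre of the gene in kb, one panel per gene in order of RT. Orange bins have RT above 0 and blue bins below, circled bins overlap the gene, and the black bar is the gene body. *Mcm5* and *Mcm3* sit in short early segments between late DNA, and *Cdt1* has no late bin in its window.

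*Mcm5* and *Mcm3* lay in early segments shorter than 1 Mb, surrounded by late DNA. Around *Mcm5*, RT rose from -3.42 at the left end of the window to 2.78 in the bin next to the gene and fell to -4.15 at the right end. The run of bins above 0 measured 477 kb, from 74828182 to 75305654, and only 21.95% of the window was early. *Mcm5* exceeded the mean of the bins 250 to 500 kb away by 4.48 log2, a difference at percentile 99.8 of all genes with RT above 0. *Mcm3* lay near the left edge of a run of 746 kb, with the crossing 173 kb to its left and 555 kb to its right. Left of that run RT reached -3.70 within 500 kb of the gene, and 36.6% of the *Mcm3* window was early. *Pkhd1*, the gene whose product is the fibrocystin of the primary cilium, had the lowest RT of the genes that lie whole in this window, at -2.83. In the *Mcm5* window the lowest was *Iqcm*, at -3.30, and the highest its left neighbor *Hmox1*, the heme oxygenase gene, at 2.70.

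*Mcm4*, *Mcm6*, *Mcm7* and *Mcm10* lay in early runs between 1215 and 4439 kb, each closer to 1 edge. *Mcm4* lay 204 kb inside the left edge of a run of 3663 kb. The 500 kb to its left had a mean RT of -0.57 and the 500 kb to its right 2.48, and the highest bin of the window, 3.01, lay 250 kb to the right at *Cebpd*, a transcription factor gene. *Efcab1* was the lowest gene there, at -2.97. *Mcm6* had late DNA on its right, with the crossing 264 kb away and RT falling to -4.09 at 1000 kb. The lowest gene lying whole in that window was *Cxcr4*, a chemokine receptor gene, at 0.60. *Mcm10* was the least close of these to an edge, with a crossing 694 kb to its left, and its lowest window gene was *Frmd4a* at 0.44. On the left of *Mcm7*, RT stayed above 0 for 4243 kb, while on its right RT passed 0 at 188 kb, reached -0.89 at 300 kb and returned above 0 within the window. Genes there ran from 3.62 for *Pcolce*, a collagen processing gene, to -0.69 for *Zfp157*, a zinc finger gene.

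*Cdc6*, *Cdt1* and *Mcm2* lay in the longest early runs, of 5704, 4660 and 5187 kb, and more than 500 kb from the closest crossing. *Cdc6* was itself the earliest bin of its window, with RT 3.72, and no protein-coding gene of the window was earlier. To the right RT passed 0 at 501 kb and fell to -2.84 at 800 kb. Of the 89 other protein-coding genes in the *Cdc6* window 41 had RT below 0, and 23 of these are keratin or keratin-associated genes by their symbols. *Cdt1* was the only gene without a crossing in its window, where RT stayed between 2.13 and 3.97, and its closest crossing was 1286 kb away. *Mcm2* stood at 2.07, between a mean of 2.78 over the 1 Mb to its left and 0.37 over the 1 Mb to its right. All 5 late genes of the *Mcm2* window are vomeronasal receptor genes of the Vmn1r family, and the lowest of them, *Vmn1r43*, had RT -2.68. The highest was *H1fx*, a linker histone gene, at 3.53. In the *Cdc6* window the range over genes ran from 3.71 for *Arl5c* to -2.84 for *Gm14180*.

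The window of *Rif1* held no strongly late DNA. Its lowest bin had RT -0.68, at 400 kb to the left, and only the windows of *Cdt1* (2.13) and *Mcm7* (-0.89) also had a lowest bin above -1. RT was 3.03 in the bin next to the left end of the gene, then 2.89 and 2.57 over the gene, and 0.69 at 200 kb to its right. The 500 kb on the left had a mean of 0.64 and those on the right 1.14. *Rif1* exceeded the mean of the bins 250 to 500 kb away by 2.41 log2, at percentile 89.8 of genes with RT above 0. In the window, *Tas2r134*, a bitter taste receptor gene, had the lowest RT of the genes lying whole in it, at -0.41.

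These profiles had a feature in common that was noticed after the values were seen. In 8 of the 10 genes (all but *Cdt1* and *Mcm4*) the highest bin within 250 kb of the gene lay on the gene or in the bin next to it, compared with 33.9% of the protein-coding genes with RT above 0. The share was 33.0% for such genes of 1 or 2 bins, which is the size of all 10 genes. Among the 67 other genes of the pathway described below, early or late, it was the case for 32. Only 4 of the 10 (*Mcm6*, *Mcm10*, *Mcm2* and *Cdc6*) had the highest bin on the gene itself, compared with 16.0%. The difference between a gene and its best neighboring bin was often within the noise, as for *Mcm3* with 1.96 against 2.04. The gene minus the bins 250 to 500 kb away had a median of 1.56 log2 over the 10 genes and of 0.68 over all genes with RT above 0, and 8 of the 10 genes were above the latter. *Mcm5* (4.48) and *Mcm3* (2.52) had the largest values, and *Mcm2* (0.08) had the smallest. Because the 10 genes and this measure were both looked at with values known, the count is a description.

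**Figure D3:**
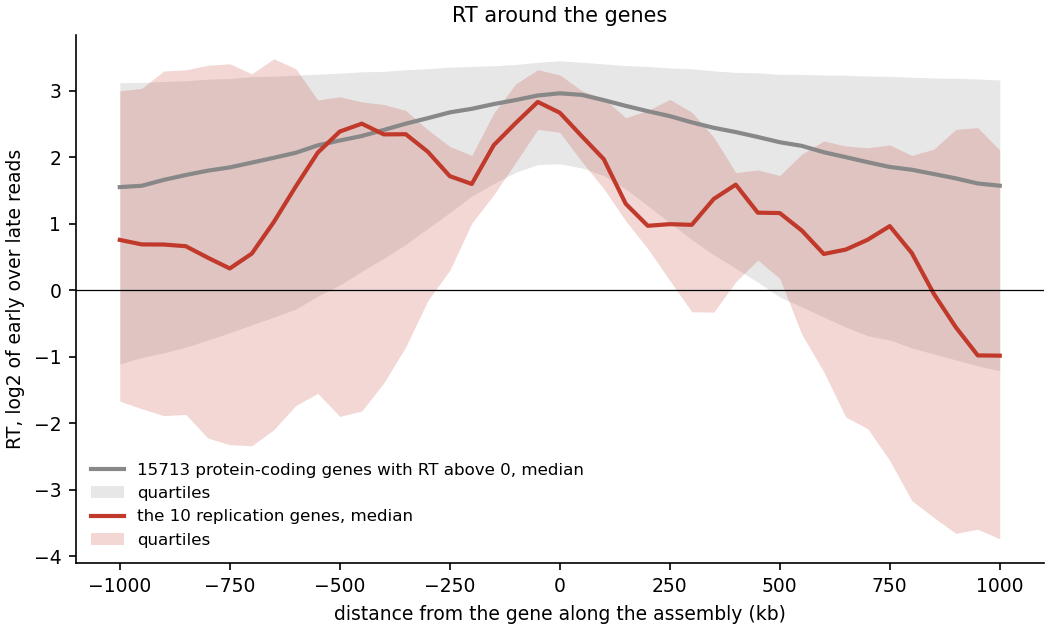
Median RT (lines) and quartiles (shading) against the distance from the gene along the assembly in kb, for the 10 genes and for the 15713 protein-coding genes with RT above 0. The median of the 10 genes falls from 2.67 on the gene to 1.72 at 250 kb to the left and 1.00 at 250 kb to the right, while that of all early genes falls from 2.96 to 2.68 and 2.62.

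Along the assembly the median RT of the 10 genes was 2.67 on the gene, 1.72 at 250 kb to the left and 1.00 at 250 kb to the right. For all early genes it was 2.96, 2.68 and 2.62. All 10 genes were early in every bin from 150 kb left to 150 kb right. At those 2 distances, each taken alone, 91.6% and 90.9% of early genes were early. The share of early genes that were early in every bin between was not computed. At 1000 kb on the right 5 of the 10 were early, compared with 65.1% of early genes and 57.2% of all genes. RT did not run one way along transcription, since the slope over the 5 bins centred on the gene was upward in the direction of transcription in 5 genes and downward in 5, several of them near 0, from -5.11 log2 per Mb for *Mcm5* to 9.85 for *Mcm7*.

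Neighboring genes shared the early timing. The closest protein-coding gene on each side was early for all 10 genes, with RT between 1.52 (*Neb*, next to *Rif1*, averaged over 6 bins) and 3.69 (*Rara*, next to *Cdc6*), and 15 of the 20 neighbors share a bin with the gene, so their values are not independent. For all genes with RT above 0, the bins 50 kb to the left and right were early in 97.0% and 96.6%. Early neighbors are therefore usual for early genes and not particular to these 10. *Prkdc*, which encodes the catalytic subunit of DNA-dependent protein kinase, starts 466 bases from *Mcm4* on the other strand and had RT 2.49 over 5 bins. *Ap4m1*, an adaptor complex gene, starts 420 bases from *Mcm7* on the other strand and has the same bin. *Mcm6* lies between *Lct*, the lactase gene (2.99), and *Dars*, an aspartyl-tRNA synthetase gene (2.49). *Mcm10* lies between *Ucma* (3.51) and *Optn*, the optineurin gene (3.22). *Cdt1* is followed by *Aprt*, an adenine salvage gene, in the same bin, and is overlapped by the annotated gene *Gm20388*, which spans 89 bins with a mean RT of 2.74. *Mcm3* lies between *Il17f* (2.04), an interleukin gene, and *Paqr8* (1.57). *Mcm2* lies between *Podxl2* (2.06) and *Tpra1* (1.87), *Mcm5* is followed by *Rasd2* (1.63), *Mcm4* is preceded by *Ube2v2* (2.36), and *Rif1* is preceded by *Tnfaip6* (2.96). *Cdc6* is preceded by *Wipf2* (3.64), and *Mcm7* overlaps the annotated body of *Cops6*, which has the same bin.

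Base composition and gene density varied among the 10 genes. GC content of the bins ran from 39.9% for *Rif1* to 52.5% for *Cdt1*, with a median of 46.1%, and the median over all genes with RT above 0 was 46.2%. Across the 10 genes the Spearman correlation of RT with GC content was 0.35, and across all 21679 protein-coding genes, which share bins and domains, it was 0.75. With the number of gene starts per bin it was 0.04 and 0.36. RT ran only from 1.96 to 3.72 over the 10 genes but from -5.21 to 4.93 over all genes. The correlations of the 2 sets can therefore not be compared directly, and those over 10 genes are imprecise. The *Rif1* bins held 0.5 gene starts per bin, the fewest of the 10 genes, while the *Mcm7* bin held 7 starts, the most.

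Other genes of the pathway were taken from 5 lists, 67 genes in all, and each had a value. RT was above 0 in 62 of them, or 92.5%, with a median of 2.99, compared with 72.5% and 2.23 for all protein-coding genes. The lists below whose genes were all early are to be read beside that share. The 27 replisome genes, which encode polymerases, the sliding clamp and its loader and fork proteins, were all early with a median of 3.28, from 3.76 for *Rfc5*, a clamp loader subunit, to 0.42 for *Rpa3*, the smallest subunit of the single-strand binding protein. The 6 genes of Rif1 partners were all early with a median of 3.49. The genes of the 3 catalytic subunits of protein phosphatase 1 had RT 3.57 (*Ppp1ca*), 2.42 (*Ppp1cb*) and 3.65 (*Ppp1cc*). In that list *Mad2l2*, which acts with Rif1 in DNA repair, was highest at 3.75 and *Ppp1cb* was lowest. All 6 genes of ubiquitin ligases that limit the licensing factors were early, from 3.81 for *Fzr1*, an activator of the anaphase-promoting complex, to 1.02 for *Skp2*.

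**Figure D4:**
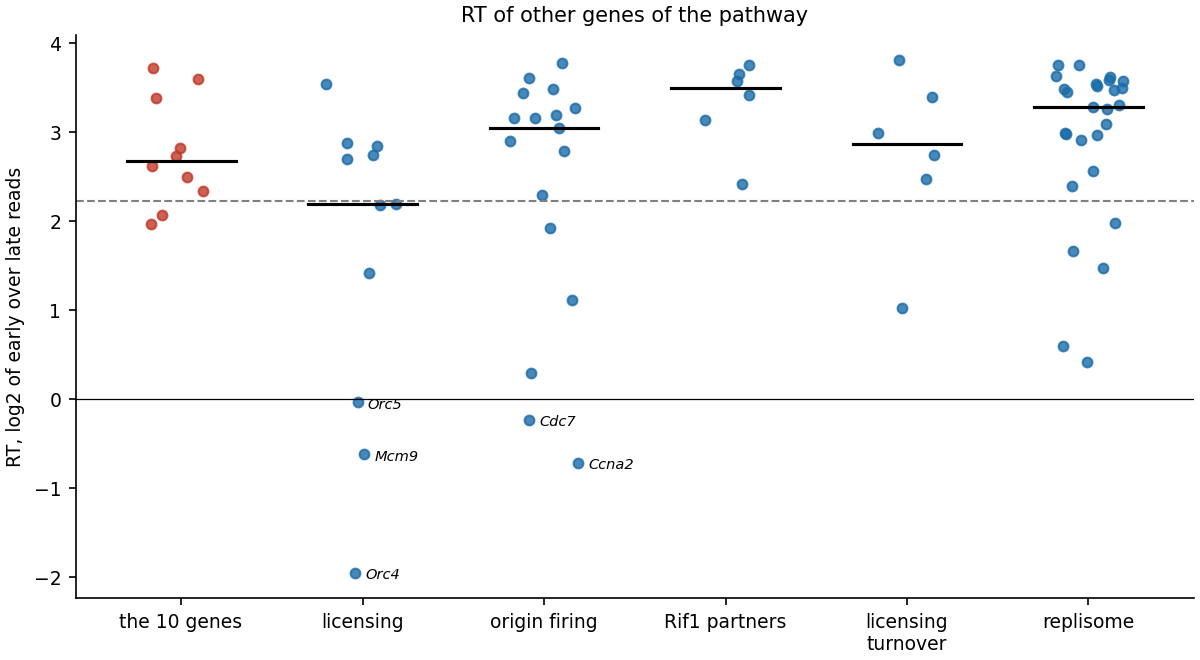
RT (log2 of early over late reads) of the 10 genes and of the genes in 5 lists of the pathway. Each point is a gene, black bars are medians, the dashed line is the median of all protein-coding genes at 2.23, and the 5 genes with RT below 0 are named.

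The 5 genes with RT below 0 were in the licensing and firing lists. The licensing list held 11 other genes, including the paralogs *Mcm8* and *Mcm9*, which lie outside the MCM ring. Of these 11 genes 8 were early, or 72.7%, with a median of 2.19. With both paralogs counted, this is close to the 72.5% and 2.23 of all protein-coding genes. *Orc4* had the lowest RT of all 67 genes, at -1.95. *Orc4* encodes a subunit of the origin recognition complex, as does *Orc5*, with RT -0.04, which is within the noise of 0. The genes of the other subunits were early, at 2.85 (*Orc1*), 2.88 (*Orc2*), 2.18 (*Orc3*) and 2.75 (*Orc6*). *Lrwd1*, whose product binds the complex, was highest in that list at 3.55. *Gmnn*, the gene of the Cdt1 inhibitor geminin, had RT 2.70. *Mcm9*, a paralog outside the ring with a role in repair, had RT -0.62, and *Mcm8*, its partner, had RT 1.42. So while all 6 genes of the MCM ring were early, the paralogs lay below each of them.

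Among 17 firing genes 15 were early, or 88.2%, with a median of 3.04, compared with 72.5% and 2.23 for all protein-coding genes. *Recql4*, a helicase gene, was highest at 3.78. *Ccna2*, the cyclin A gene, was lowest at -0.71, and *Cdc7*, the gene of the kinase that activates the MCM ring and that Rif1 counteracts, had RT -0.23 in 1 bin, within 2 noise SDs of 0. *Dbf4*, the gene of its regulatory subunit, had RT 1.11. *Rif1* at 2.73 was thus earlier than both genes of the kinase by more than the noise. Both *Cdc7* and *Ccna2* were at a local maximum of RT within 250 kb although their RT was below 0. In all, 10 of the 17 firing genes were at such a maximum, as were 6345 of the 21679 protein-coding genes.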

How the data were processed

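Population-based replication timing was measured by Repli-seq in F121-9 mESCs. The authors deposited a single log2 value for each 50 kb bin, the ratio of the early to the late S-phase fraction after scaling each to RPM. Per the labels, the build is mm10 and the processing notes name Bowtie2, SAMtools and bedtools. Which replicates the column holds, how they were combined, and any filter or smoothing of this profile, is not given in the sources used here.

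Of 51427 rows, 51153 bins on the 19 autosomes and X entered, and no chromosome exceeded the length of the reference assembly. The RT of a gene is the mean of the bins that overlap its body in GENCODE vM21. A crossing is the interpolated position where RT passes 0. A CTR is a run of at least 10 bins whose absolute slope over 5 bins does not exceed 2.5 log2 per Mb. Noise was estimated from the deviation of bins in CTRs from the mean of their neighbors, by the median absolute deviation over 7337 bins. A local maximum is the highest bin within 250 kb, on the gene or next to it. Members, lists and measures were chosen with earlier results of these data known. The text names all 10 genes, their nearest protein-coding genes, the listed genes below 0, and the highest and lowest genes of each list and of each window with a crossing. Others, named for their role, were chosen after their values were seen. No test across samples was possible with 1 value per bin, and no p-value is given. The steps were tested on simulated profiles. Alternatives covered the value of a gene, smoothing, the limit of early, the window, and the limits of CTRs and of local maxima. Calculations used Python 3.11.15 with numpy 2.4.6, pandas 2.3.3, scipy 1.17.1 and matplotlib 3.10.9.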

Additional observations from a re-analysis of the deposited data

How the results depend on the processing

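No paired analysis was possible because the single deposited column names no replicate, and the alternatives that leave out a replicate or use a replicate block were not run for the same reason. Of 24 alternatives for the counts and the median, 20 left the value within 1.5 times or within the noise SD. This rule does not weigh the background share. Windows with a crossing numbered 7 with 500 kb on each side, 10 with 2 Mb, 9 after the running median and 7 at the genome median. The shares of all protein-coding genes were 50.2%, 89.9%, 67.2% and 64.9%. All 10 genes stayed above RT 0 under each value of a gene, with the running median, at the genome median of RT and at RT 1. The median RT of the 10 genes was 2.502 with the median of the bins within 100 kb, where that of all protein-coding genes was 2.20. The number of genes inside a CTR was 2 (*Mcm3* and *Cdc6*) with a slope limit of 5 log2 per Mb and 1 (*Cdc6*) with a minimum length of 5 bins, where 40.0% and 26.4% of all protein-coding genes were. The number at a local maximum, whose alternatives were chosen after seeing the data, was 4 when the highest bin had to lie on the gene. It was 6 within 500 kb and 6 after the running median (backgrounds of 24.2% and 29.5%), where *Cdt1* gained and *Mcm5*, *Mcm7* and *Mcm10* lost it. The cause was not tested. Of 40 alternatives for single genes none changed sign and 10 moved the value by more than the noise SD, by at most 0.32. Read depth is not known, so its limits could not be examined.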
